A study of Mus musculus with 85 samples.

Results

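Ch25h, Cyp27a1, Cyp7b1 and Gpr183, the genes of a short route that makes, modifies and senses hydroxylated cholesterol, were read by gene symbol from the expression tables of mouse liver cells and macrophages. They are 4 of the 23608 genes listed, and all 4 were present. RNA was sequenced in 85 libraries that fall into 30 groups, 69 of them from inbred C57BL/6J, BALB/cJ and A/J mice and 16 from CB6F1/J, the first-generation cross of BALB/cJ and C57BL/6J. The comparisons ask how far each gene differs by strain, cell type, an endotoxin stimulus, a diet and transfer of marrow into another host. The methods give all mice as male and 8 to 12 weeks old, and the 30 weeks of diet come on top of any age at its start.

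Kupffer cells, the macrophages that line liver sinusoids, were sorted as CD146-negative, CD45-positive, F4/80-high and CD11b-intermediate cells. Kupffer cells of the LPS groups (2 libraries each of BALB/cJ and C57BL/6J, 5 of CB6F1/J) came from fasted mice given lipopolysaccharide at 0.1 mg/kg into the abdomen 2 h earlier. Those of the AMLN groups (4 libraries of A/J, 3 of BALB/cJ and 4 of C57BL/6J) came from mice kept for 30 weeks on the AMLN diet, which induces steatohepatitis, and the methods name a laboratory-maintained C57BL/6 line for the last of these. Those of the NSG groups (3 BALB/cJ, 3 C57BL/6J and 3 CB6F1/J libraries) were donor-derived cells sorted from immunodeficient NSG mice that had been conditioned with busulfan and given donor marrow stem cells 4 months earlier, so the recipients keep a host liver of another strain and some host cells. All of these were set against the Kupffer cells labelled Control (2 libraries in each inbred strain, 4 of CB6F1/J). The protocols give fasted, uninjected controls for LPS and a defined control diet for AMLN, and no label says which of these, or what age, the Control libraries were. Diet therefore cannot be told apart from age, fasting and batch, nor, in C57BL/6J, from mouse line. The study describes the Kupffer cells of NSG recipients as monocyte-derived. Those of inbred donors were sorted as F4/80-positive and CD11b-positive cells of donor histocompatibility type, a gate other than that above. Host liver therefore cannot be told apart from cell origin, age, gate and batch. Bone marrow-derived macrophages (BMDMs), grown in L929-conditioned medium with M-CSF, were exposed for 2 h to 100 ng/ml of Kdo2-lipid A (KLA), a ligand of the endotoxin receptor TLR4, or to PBS, with 2 libraries for each strain and treatment. Liver sinusoidal endothelial cells (LSECs, 4 libraries a strain), hepatic stellate cells (4 A/J, 4 BALB/cJ and 3 C57BL/6J) and hepatocytes (2 A/J, 2 BALB/cJ and 3 C57BL/6J) came from untreated mice.

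CH25H adds a hydroxyl group to cholesterol in the endoplasmic reticulum, and interferon and TLR signals are known to induce its gene in macrophages. CYP27A1 makes another oxysterol in mitochondria and starts the alternative route of bile acid synthesis. CYP7B1 hydroxylates the products of both enzymes at a further position. In the liver this step leads towards bile acids, and in lymphoid tissue it forms the ligand of GPR183 (EBI2), a receptor that guides B cells, T cells and dendritic cells. Oxysterols also activate the LXR nuclear receptors and hold back SREBP2, which drives cholesterol synthesis.

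The 4 genes lie apart in the genome (GRCm38.p6, RefSeq). Ch25h occupies chr19:34473783-34475148 on the minus strand, Cyp27a1 chr1:74713148-74737897 on the plus strand, Cyp7b1 chr3:18071944-18243890 and Gpr183 chr14:121952331-121965193 on the minus strand. RefSeq promoter windows matched 3 of the 4 genes. The 250 bases before a RefSeq start site are shown for Ch25h and Cyp27a1, since these genes moved in opposite directions after an endotoxin stimulus in the results that follow. The Ch25h window adjoins its gene span. The Cyp27a1 window begins at 74713285, inside its span, so it precedes a start site downstream of the span's first base. Bases before 74713148 were not part of that window. Capitals mark matches to an NF-kB pattern (GGGA, any 4 bases, CC) and to the cyclic AMP response element TGACGTCA, each searched on both strands.
Ch25h, chr19:34475149-34475398, minus strand: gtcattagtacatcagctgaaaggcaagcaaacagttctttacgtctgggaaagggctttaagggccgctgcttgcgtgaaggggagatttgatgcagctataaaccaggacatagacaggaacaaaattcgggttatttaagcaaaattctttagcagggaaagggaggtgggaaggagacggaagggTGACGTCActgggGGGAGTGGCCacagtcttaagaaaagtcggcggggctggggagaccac
Cyp27a1, chr1:74713285-74713534, plus strand: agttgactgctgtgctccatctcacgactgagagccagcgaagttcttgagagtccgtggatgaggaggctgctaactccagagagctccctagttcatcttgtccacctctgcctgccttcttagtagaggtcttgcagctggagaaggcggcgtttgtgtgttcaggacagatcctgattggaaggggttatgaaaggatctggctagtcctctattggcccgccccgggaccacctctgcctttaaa
The Ch25h window held 1 NF-kB match, at bases -48 to -39 before the start, and 1 response element, at bases -61 to -54, which do not overlap. The NF-kB pattern was present in 17.6% of the 32851 promoter windows of that length and the response element in 1.55%, and the second pattern was searched only after the Ch25h sequence had been read. The windows of Cyp27a1 and Gpr183 held neither pattern. None of these 3 windows held the interferon pattern of GAAA, any 2 bases and GAAA, present in 2.98% of windows, or the AP-1 pattern TGANTCA, present in 6.75%. The LXR pattern of AGGTCA repeated after any 4 bases, present in 5 windows of the table, was also not in them. A match says only that these letters stand in this window.

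The total count of a library was 5254797 to 24217240 in inbred Kupffer cells, 22021354 to 42779190 in BMDMs, 6377394 to 14010965 in LSECs, 8101739 to 12692787 in stellate cells, 9187077 to 21445259 in hepatocytes and 50141540 to 125294454 in CB6F1/J cells. Levels are given in TPM as deposited, transcripts scaled for length and depth, and the TPM of the genes listed summed to 501281 to 595601 in the inbred libraries, least in stellate cells and LSECs and most in hepatocytes. Of the 6 Kupffer cell markers, 5 exceeded 8 TPM in all 39 Kupffer libraries, with Marco down to 1.05 TPM, and all 5 markers of each other cell type exceeded it in that cell type's libraries. No 2 replicate files were alike. In 1 library the data go against the label. C57BL/6J carries a partial deletion of Nnt, and the hepatocyte library labelled C57BL/6J replicate 3 had 38.5 Nnt TPM, against 13.7 and 15.0 TPM in the other hepatocyte libraries of that strain and 36.1 to 46.5 TPM in BALB/cJ and A/J hepatocytes, so Cyp7b1 and Cyp27a1 results that rest on it are given with and without it. AMLN-fed C57BL/6J Kupffer cells had 16.99 to 21.7 Nnt TPM, above the 10.0 to 13.6 TPM of C57BL/6J Control and within the 14.2 to 28.8 TPM of AMLN-fed A/J. AMLN-fed BALB/cJ cells had 27.8 to 33.1 Nnt TPM, and C57BL/6J BMDMs given PBS 17.3 and 17.5 TPM. The label of the AMLN-fed C57BL/6J libraries is therefore in doubt wherever they are compared with another strain or with C57BL/6J Control. The methods name a laboratory-maintained C57BL/6 line for these mice, and the cause of their Nnt level was not tested. The 5 hepatocyte markers summed to 6022, 6700 and 7103 TPM in 3 LSEC libraries (A/J replicates 1 and 2 and BALB/cJ replicate 1), against 769 to 1991 TPM in the other 9, and LSEC differences in the text are also given without these 3. In sorted cells, fewer cells of a type and less RNA per cell cannot be told apart. No label says which libraries came from separate animals, so p-values measure the spread between these libraries, which may be technical.

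Each gene had its own pattern over the 25 inbred groups. Ch25h averaged above 8 TPM in 5 groups and below 1 TPM in 15, and no count was found in 16 of the 69 libraries. Cyp27a1 averaged above 8 TPM in 24 of the 25 groups and was found in all libraries. Cyp7b1 averaged above 8 TPM in 5 groups and below 1 TPM in 12, and Gpr183 in 9 and 8 groups.

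**Figure D1:**
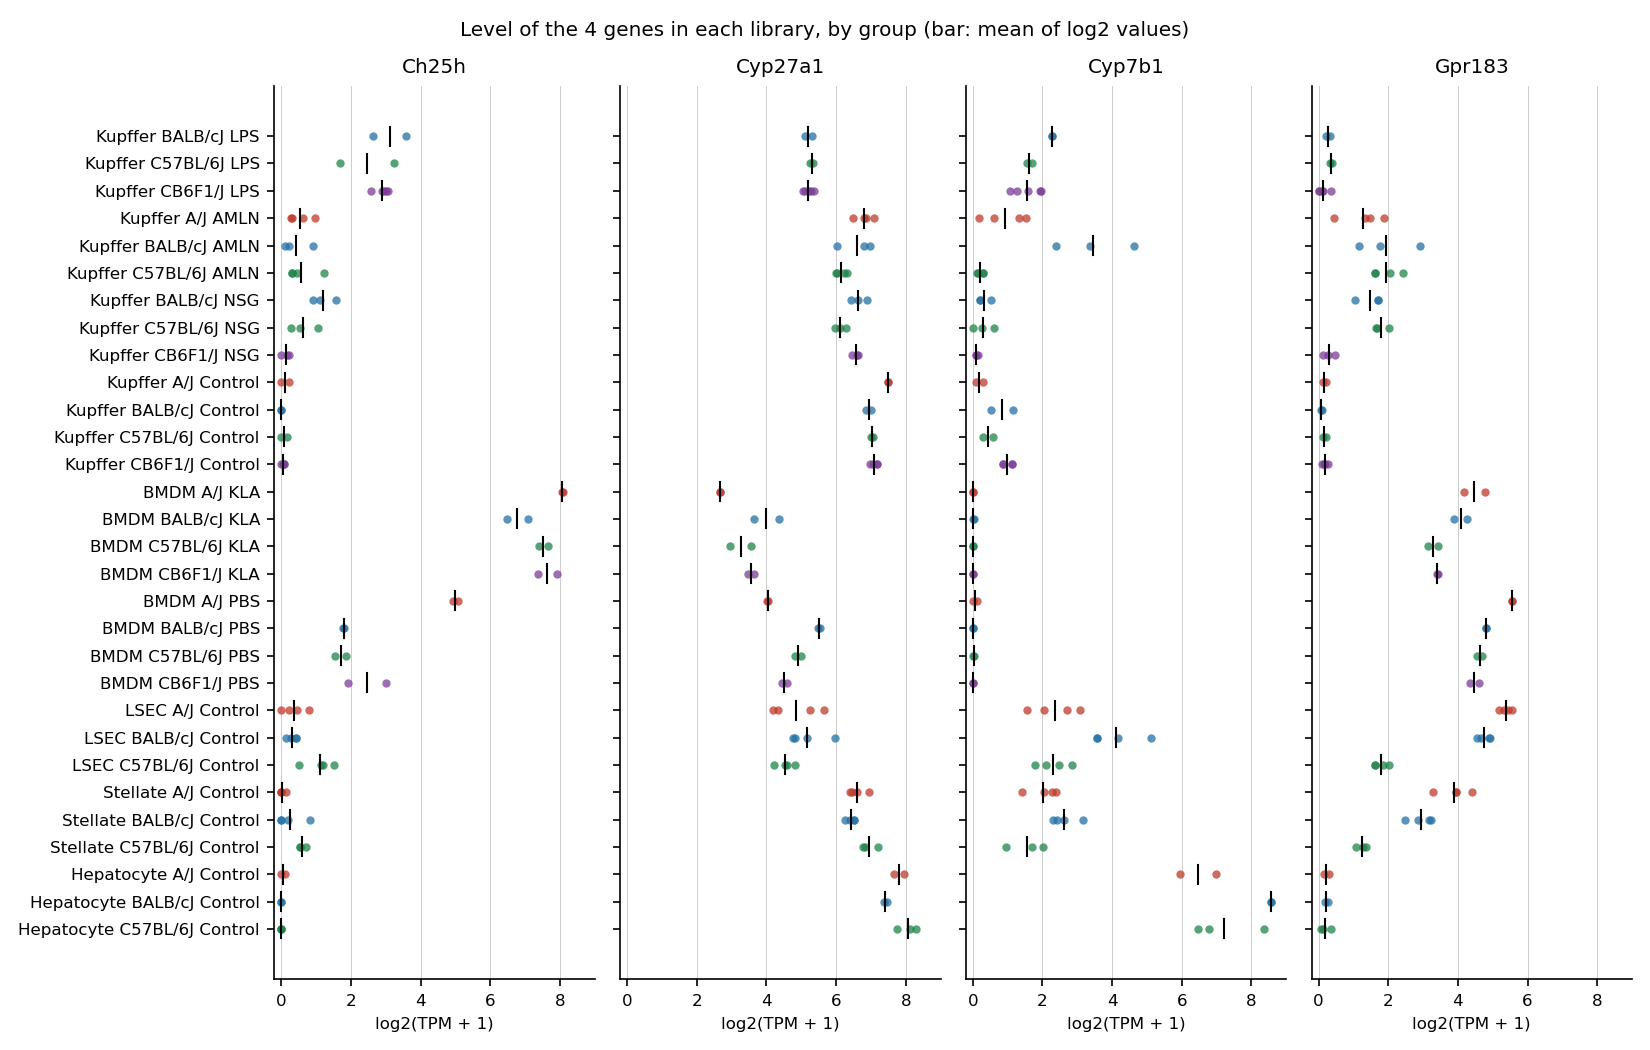
Each panel shows log2(TPM + 1) of 1 gene in all 85 libraries, with the 30 groups down the page, a point for each library and a bar at the group's mean of these log2 values, colored by strain. Ch25h is highest in KLA-treated BMDMs (87.8 to 268 TPM in the inbred strains), Cyp7b1 in hepatocytes (60.9 to 378 TPM), Cyp27a1 is present throughout the liver cells, and Gpr183 in LSECs of A/J and BALB/cJ mice and in BMDMs.

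The highest groups of Ch25h were KLA-treated BMDMs of A/J (268 ± 0.907 TPM), C57BL/6J (184 ± 24.5 TPM) and BALB/cJ (110 ± 32.1 TPM), then PBS-treated BMDMs of A/J (30.7 ± 2.22 TPM) and LPS-treated BALB/cJ Kupffer cells (8.10 ± 4.07 TPM; SD, n = 2 each). The libraries of these first 5 groups do not overlap. Of the 24 pairs of neighbours in the full order, the libraries of 4 did not overlap for Ch25h, 8 for Cyp27a1, 3 for Cyp7b1 and 4 for Gpr183, so most of the lower order is not resolved. Ordering by TMM-scaled counts in place of TPM kept all 5 of the highest groups for Ch25h, Cyp27a1 and Cyp7b1 and 4 of 5 for Gpr183. Over the 25 group means on the log2(TPM + 1) scale, Ch25h and Cyp27a1 ran in opposite directions (r = -0.85), as did Cyp27a1 and Gpr183 (r = -0.68). These are descriptions, since the groups share cell types and control libraries and differ in depth.

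A difference was called where the adjusted p of edgeR's quasi-likelihood test (Benjamini-Hochberg over all genes tested) was under 0.05 and the log2 (fold change) was beyond 1 in size. Genes were tested where a group of the comparison averaged above 8 TPM and counts passed edgeR's filterByExpr. A member below 8 TPM was also tested with filterByExpr alone, which is named each time. A member at or under 8 TPM in 1 group entered a test through the other group alone, so a difference was to be found there, which holds for Ch25h and Cyp7b1 in every such test except Ch25h after KLA in A/J BMDMs and Cyp7b1 among hepatocytes, for Cyp27a1 after KLA in A/J BMDMs, and for Gpr183 in tests with C57BL/6J LSECs, with BALB/cJ or C57BL/6J stellate cells or with Kupffer cells. Beside the members' counts stands the share of all tested genes that was called. The tests scaled libraries by TMM factors, while TPM and ratios of summed counts rest on library totals, so sizes of change can differ. After LPS the tested rises of Cyp7b1, and of Ch25h in CB6F1/J, were larger than those in levels or ratios. The tested falls of Cyp27a1 after LPS were smaller than those in TPM.

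Ch25h was nearly absent from untreated liver cells. Untreated Kupffer cells held 2 and 0 counts in A/J libraries, none in either BALB/cJ library and 0 and 1 in C57BL/6J libraries, at most 0.173 TPM, and stellate cells at most 0.765 TPM. A single count was found in 7 hepatocyte libraries together. In LSECs, A/J libraries had 0 to 0.73 Ch25h TPM, BALB/cJ libraries 0.094 to 0.344 TPM and C57BL/6J libraries 1.29, 1.21, 0.429 and 1.87 TPM, and the A/J and C57BL/6J ranges overlap. With filterByExpr alone, Ch25h was lower in Kupffer cells than in LSECs by -2.80 ± 0.83 on the log2 scale (edgeR, adjusted p = 0.0052; -2.74 without the 3 libraries rich in hepatocyte markers, adjusted p = 0.011), in a comparison where 43.1% of genes were called by that rule.

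BMDMs carried Ch25h before any stimulus, and mostly in A/J. PBS-treated BMDMs had 29.2 and 32.3 Ch25h TPM in A/J, against 2.41 and 2.50 TPM in BALB/cJ and 1.90 and 2.62 TPM in C57BL/6J. Both A/J libraries stand above all others, and the BALB/cJ and C57BL/6J libraries overlap. A/J minus BALB/cJ was 3.56 ± 0.18 (log2, edgeR adjusted p = 3.5e-10) and A/J minus C57BL/6J 3.66 ± 0.18 (adjusted p = 7.55e-11), so Ch25h was the higher in A/J. Between BALB/cJ and C57BL/6J, with filterByExpr alone, the difference was 0.08 ± 0.21 (edgeR, adjusted p = 0.81). In CB6F1/J BMDMs given PBS the values were 6.97 and 2.78 TPM. Of the 3 members tested in PBS-treated BMDMs, 2 were called between A/J and BALB/cJ, where 4.38% of all genes were, 1 between A/J and C57BL/6J, where 5.6% were, and Cyp27a1 and Gpr183 were tested without a call between BALB/cJ and C57BL/6J, where 4.63% were.

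KLA raised Ch25h in BMDMs of every strain. A/J BMDMs had 268 and 267 TPM after KLA, against 29.2 and 32.3 TPM after PBS. BALB/cJ BMDMs had 87.8 and 133 TPM after KLA, against 2.41 and 2.50 TPM, and C57BL/6J BMDMs 167 and 201 TPM, against 1.90 and 2.62 TPM. No KLA library overlaps a PBS library of any strain, and after KLA the A/J libraries were still the highest. The log2 (fold change) was 3.36 ± 0.16 in A/J (edgeR, adjusted p = 3.7e-09), 5.76 ± 0.20 in BALB/cJ (adjusted p = 1.8e-10) and 6.54 ± 0.20 in C57BL/6J (adjusted p = 5.3e-11). The fold increase was thus smaller where the PBS level was high. Tested directly, the response of A/J was -2.40 ± 0.26 below that of BALB/cJ (edgeR interaction, adjusted p = 0.00033) and -3.17 ± 0.25 below that of C57BL/6J (adjusted p = 2.5e-05). The response of BALB/cJ differed from that of C57BL/6J by -0.78 ± 0.31 (adjusted p = 0.18), a call that appeared without BALB/cJ KLA replicate 2 (-1.07, adjusted p = 0.0089). Of the 3 members tested, Ch25h alone was called in the first 2 of these interactions, where 1.05% and 1.58% of all genes were called, and no member in the third, where 1.15% were. In CB6F1/J BMDMs, KLA gave 164 and 239 Ch25h TPM, against 6.97 and 2.78 TPM after PBS, a log2 (fold change) of 5.67 ± 0.61 (edgeR, adjusted p = 0.0054). With 2 libraries a group that call was lost without KLA replicate 1 (5.91, adjusted p = 0.084) or KLA replicate 2 (5.33, adjusted p = 0.090).

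LPS raised Ch25h in Kupffer cells to levels far below those of KLA-treated BMDMs. BALB/cJ Kupffer cells had 5.22 and 10.98 TPM (89 and 57 counts) after LPS, against 0 counts in both Control libraries. C57BL/6J Kupffer cells had 2.24 and 8.47 TPM after LPS, against 0 and 0.114 TPM in Control. CB6F1/J Kupffer cells had 6.67, 6.33, 7.33, 6.99 and 4.94 TPM after LPS, against 0.063, 0.061, 0 and 0.032 TPM in Control. All 9 LPS libraries stand above all Control libraries, and the 2 LPS libraries of an inbred strain differ more from each other than the 5 of CB6F1/J. From the summed counts, scaled by depth, Ch25h was at least 51.8-fold higher after LPS in BALB/cJ, with a floor of 3 counts over the Control group, and was called (edgeR, adjusted p = 0.0022). Without BALB/cJ LPS replicate 2 it was under the TPM limit, and was called with filterByExpr alone (edgeR, adjusted p = 0.0039). In C57BL/6J the ratio was 97.6 (95% counting interval 16.98 to 3904, from 75 and 1 counts), called with filterByExpr alone (edgeR, adjusted p = 0.0020). In CB6F1/J the ratio was 178 (96.6 to 372, from 1876 and 10 counts), and the log2 (fold change) by that rule was 8.21 ± 0.39 (edgeR, adjusted p = 1.1e-09). The test of BALB/cJ against C57BL/6J for a different LPS response gave an adjusted p of 0.775 (edgeR interaction), on Control groups of 0 and 1 counts, which is too few to rank the strains. KLA and LPS differ in ligand form, route and cells, and the values stand side by side without a test.

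**Figure D2:**
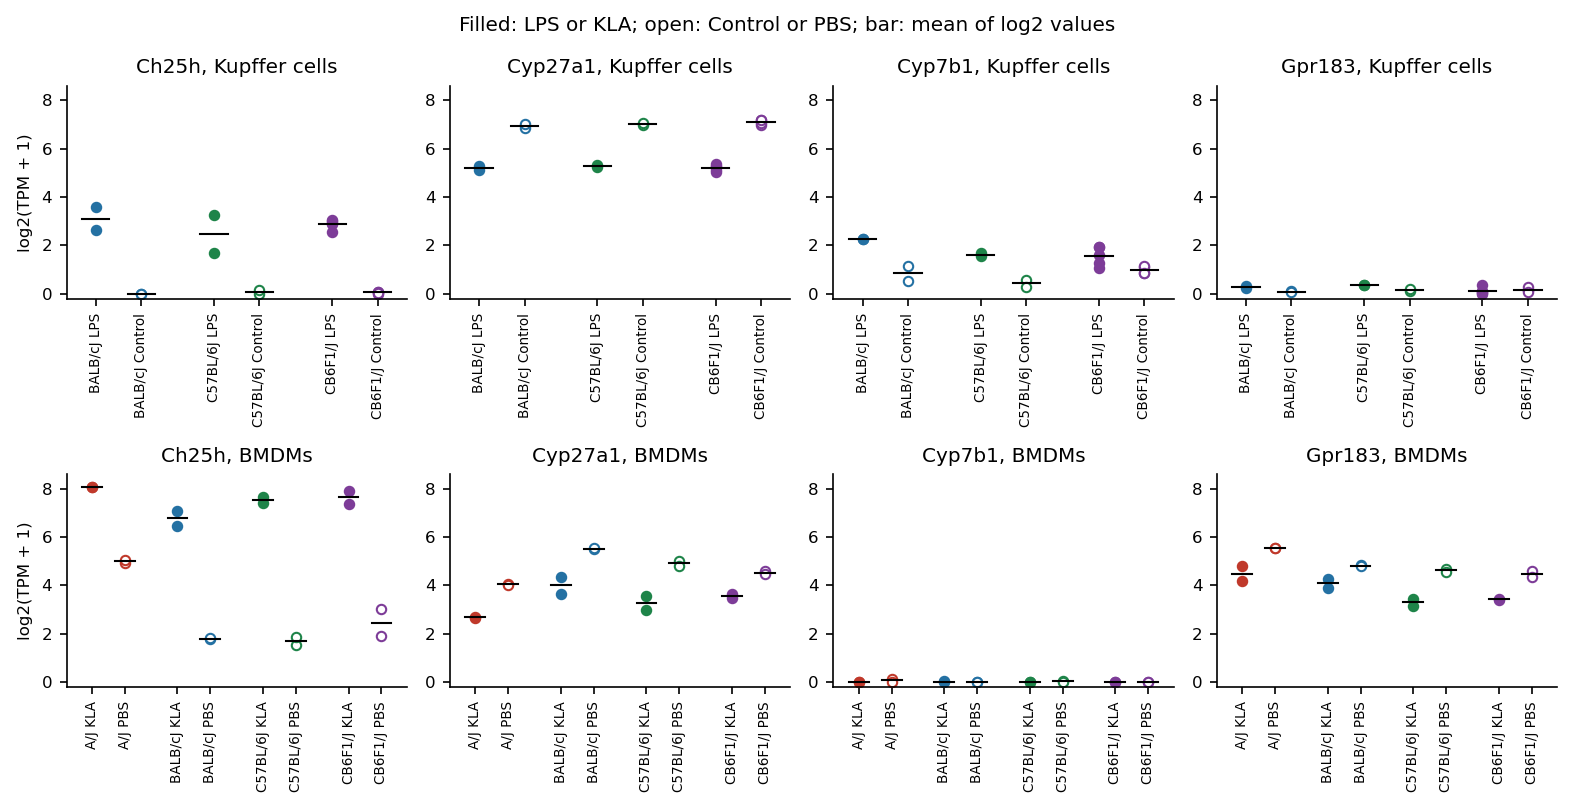
log2(TPM + 1) of the 4 genes in single libraries with a bar at the group's mean of these values, with Kupffer cells after LPS (filled points) and Control (open points) in the top row and BMDMs after KLA (filled) and PBS (open) in the bottom row, by strain. Ch25h is higher in every treated library than in any untreated library of the same strain, Cyp27a1 is lower in every treated library, and Cyp7b1 in BMDMs stays at or near 0 with a highest value of 0.085 TPM.

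Monocyte and neutrophil markers were higher in the LPS-treated Kupffer cells. The 5 neutrophil markers summed to 175 to 328 TPM in LPS libraries of the inbred strains, against 86.5 to 122 TPM in Control libraries, and 1 of 5 at most was at 0 after LPS, against 1 to 3 in Control. The 5 monocyte markers summed to 110 to 134 TPM after LPS in BALB/cJ, against 11.9 to 21.4 TPM in Control, and to 172 to 209 TPM in C57BL/6J, against 118 to 170 TPM. Their part in the Ch25h difference was not tested. Kupffer cell markers summed to 8535 to 11014 TPM after LPS, against 13616 to 15523 TPM in Control.

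After transfer of marrow into NSG recipients, Ch25h in donor-derived Kupffer cells was 1.17, 1.97 and 0.875 TPM in BALB/cJ and 1.08, 0.209 and 0.438 TPM in C57BL/6J. These stand above the Control libraries of the same strains (0 and 0 TPM, 0 and 0.114 TPM). In BALB/cJ the ratio was at least 10.2-fold (36 counts, against 0), called with filterByExpr alone (edgeR, adjusted p = 0.0076), but neither without Control replicate 1 nor without Control replicate 2 was it called, and without NSG replicate 1 or 2 it did not pass the filter. In C57BL/6J the ratio was 10.6 (95% counting interval 1.64 to 448, from 15 and 1 counts) without a call (edgeR, adjusted p = 0.11). CB6F1/J cells in NSG recipients had 0.114, 0 and 0.163 TPM. On the AMLN diet Ch25h was 0.204 to 0.965 TPM in A/J, 0.072 to 0.864 TPM in BALB/cJ and 0.224 to 1.34 TPM in C57BL/6J, without a call against Control in any strain (edgeR, filterByExpr alone, adjusted p = 0.29, 0.19 and 0.15).

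Cyp27a1 was the one member found at a high level in Kupffer cells. Untreated Kupffer cells had 177 and 178 Cyp27a1 TPM in A/J, 115 and 128 TPM in BALB/cJ and 127 and 131 TPM in C57BL/6J. Hepatocytes held 164 to 313 TPM, a range that takes in the A/J Kupffer cells, stellate cells 76.1 to 145 TPM and LSECs 17.1 to 61.1 TPM. Kupffer cell markers summed to 1971 to 6020 TPM in A/J stellate cells, 165 to 699 TPM in BALB/cJ and 1166 to 1600 TPM in C57BL/6J. In Control Kupffer cells of the inbred strains they summed to 13616 to 15523 TPM. The part of Kupffer cell RNA in the stellate cell level of Cyp27a1 was not tested. Kupffer cells exceeded LSECs by 2.59 ± 0.22 on the log2 scale (edgeR, adjusted p = 1.0e-08; 2.89 without the 3 libraries rich in hepatocyte markers) and stellate cells by 0.65 ± 0.12 (adjusted p = 9.1e-05), which is under the limit for a call, and were below hepatocytes by -1.78 ± 0.15 (adjusted p = 4.7e-08; -1.72 without the library labelled C57BL/6J replicate 3). The share of all genes called was large in each of these 3 comparisons, 38.3% against LSECs, 36.5% against stellate cells and 60.3% against hepatocytes. The members tested under the TPM limit were called in 3 of 3 cases against LSECs, 1 of 2 against stellate cells and 2 of 2 against hepatocytes.

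Between strains, untreated Kupffer cells differed little in Cyp27a1. Both A/J libraries were above the other 4, by 0.52 ± 0.11 against BALB/cJ (edgeR, adjusted p = 0.014) and 0.44 ± 0.11 against C57BL/6J (adjusted p = 0.025), and BALB/cJ and C57BL/6J differed by -0.08 ± 0.11 (adjusted p = 0.62). It was the only member tested there and was not called in any of the 3 comparisons, where 3.34%, 4.64% and 5.84% of all genes were called.

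In BMDMs the order of strains was turned round. PBS-treated BMDMs had 15.6 and 15.3 Cyp27a1 TPM in A/J, against 44.1 and 45.6 TPM in BALB/cJ and 31.0 and 27.0 TPM in C57BL/6J. The 3 strains do not overlap. A/J minus BALB/cJ was -1.63 ± 0.10 (log2, edgeR adjusted p = 3.8e-09). It was below C57BL/6J by -0.99 ± 0.10 (adjusted p = 7.4e-07), just under the limit for a call, and past it without A/J PBS replicate 1 (-1.004) or C57BL/6J PBS replicate 2 (-1.09). The difference between BALB/cJ and C57BL/6J was 0.64 ± 0.10 (adjusted p = 8.0e-05).

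The strain difference therefore depended on the cell. Set against that of BMDMs, the A/J minus BALB/cJ difference of Cyp27a1 in Kupffer cells was higher by 2.12 ± 0.14 (edgeR interaction of strain and cell type, adjusted p = 1.5e-06) and the A/J minus C57BL/6J difference by 1.42 ± 0.14 (adjusted p = 1.5e-05). For BALB/cJ minus C57BL/6J it was -0.69 ± 0.14 (adjusted p = 0.0043), under the limit for a call. Cyp27a1 was the member called, 1 of 3 tested, in the first 2, where 9.09% and 7.88% of all genes were called, and no member was called in the last, where 6.95% were. For Ch25h, which is at 0 to 2 counts in untreated Kupffer cells, the first 2 tests gave adjusted p-values of 0.71 and 0.38 (edgeR), and too few counts to show whether its A/J excess is limited to BMDMs.

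Cyp27a1 fell after LPS and after KLA. BALB/cJ Kupffer cells had 33.5 and 38.5 TPM after LPS, against 115 and 128 TPM in Control. C57BL/6J Kupffer cells had 39.7 and 37.2 TPM after LPS, against 127 and 131 TPM in Control. In CB6F1/J the LPS libraries had 33.5, 36.5, 31.9, 38.1 and 40.0 TPM, against 144, 124, 134 and 143 TPM in Control. The groups are far apart in all 3 strains, with log2 (fold changes) of -1.30 ± 0.14 in BALB/cJ (edgeR, adjusted p = 0.00015), -1.18 ± 0.14 in C57BL/6J (adjusted p = 0.00021) and -1.17 ± 0.09 in CB6F1/J (adjusted p = 1.9e-07). The responses of BALB/cJ and C57BL/6J differed by -0.13 ± 0.19 (edgeR interaction, adjusted p = 0.81). LPS moved a large share of the transcriptome, 31.8% of all tested genes in BALB/cJ, 38.5% in C57BL/6J and 39.4% in CB6F1/J. Under the TPM limit 2 of 2 members were called in BALB/cJ and 1 of 1 in each of C57BL/6J and CB6F1/J. The test between the 2 inbred strains called 0.11% of genes and neither of the 2 members tested.

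In BMDMs Cyp27a1 was 5.41 and 5.33 TPM after KLA in A/J, against 15.6 and 15.3 TPM after PBS. It was 19.3 and 11.5 TPM in BALB/cJ, against 44.1 and 45.6 TPM, and 10.7 and 6.80 TPM in C57BL/6J, against 31.0 and 27.0 TPM. No KLA library reaches a PBS library of its strain. It fell by -1.28 ± 0.28 in A/J (log2, edgeR adjusted p = 0.0028), -1.27 ± 0.24 in BALB/cJ (adjusted p = 0.0012) and -1.48 ± 0.26 in C57BL/6J (adjusted p = 0.00055), and the BALB/cJ call was lost without BALB/cJ KLA replicate 2 (-0.90, adjusted p = 0.0015). The 3 pairwise tests between strains were not called (adjusted p = 0.99, 0.81 and 0.78). In CB6F1/J it was 10.0 and 11.4 TPM after KLA, against 22.9 and 20.9 TPM after PBS, a log2 difference of -0.76 ± 0.11 (adjusted p = 0.0018) under the limit for a call. KLA called 2 of 3 members in A/J (12.2% of all genes), 2 of 3 in BALB/cJ (14.1%), 3 of 3 in C57BL/6J (16.9%) and 1 of 3 in CB6F1/J (12.3%). The treated and control libraries of each strain are shared by the values of all 4 genes.

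In NSG recipients, Cyp27a1 was 84.7, 97.2 and 117 TPM in BALB/cJ cells and 76.8, 62.0 and 68.5 TPM in C57BL/6J cells, which do not overlap. BALB/cJ exceeded C57BL/6J by 0.57 ± 0.12 (edgeR, adjusted p = 0.0048), where 3.89% of all genes were called. Against Control, the NSG difference was -0.28 ± 0.13 in BALB/cJ (adjusted p = 0.15) and -0.94 ± 0.13 in C57BL/6J (adjusted p = 0.00012), the second past the limit for a call without NSG replicate 1 (-1.01). The difference between these was 0.66 ± 0.19 (edgeR interaction, adjusted p = 0.10). Cyp27a1 was the only member tested in these 3 comparisons under the TPM limit and was not called, where 5.44%, 8.47% and 1.2% of all genes were. In AMLN-fed mice it was 89.3 to 134 TPM in A/J, 64.2 to 124 TPM in BALB/cJ and 63.0 to 78.5 TPM in C57BL/6J. AMLN minus Control was -0.53 ± 0.21 in A/J, -0.33 ± 0.23 for BALB/cJ and -0.68 ± 0.21 for C57BL/6J, all under the limit for a call, and only the last had an adjusted p under 0.05 (edgeR, adjusted p = 0.030).

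In hepatocytes Cyp27a1 had 200.1 and 246 TPM in A/J, 176 and 164 TPM in BALB/cJ and 213, 279 and 313 TPM in C57BL/6J. BALB/cJ does not overlap the others. The BALB/cJ minus C57BL/6J difference was -0.79 ± 0.17 (edgeR, adjusted p = 0.016), under the limit for a call, and -0.71 ± 0.18 without the library labelled C57BL/6J replicate 3 (adjusted p = 0.023). In LSECs the Cyp27a1 differences between strains were not called with or without the 3 libraries rich in hepatocyte markers, and the A/J minus C57BL/6J value of 0.49 ± 0.39 changed sign to -0.26 ± 0.18 without them (edgeR, adjusted p = 0.35).

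Cyp7b1 was at its highest in hepatocytes, above all in BALB/cJ. Hepatocytes had 60.9 and 125 Cyp7b1 TPM in A/J, 378 and 377 TPM in BALB/cJ and 109, 87.7 and 328 TPM in C57BL/6J, the last from the library whose Nnt goes against its label. Both BALB/cJ libraries stand above all others, and that library lies closest to them. Cyp7b1 was lower in Kupffer cells than in hepatocytes by -10.04 ± 0.49 on the log2 scale (edgeR, adjusted p = 1.6e-10), and by -9.83 ± 0.35 without the library labelled C57BL/6J replicate 3 (adjusted p = 3.6e-11). With all libraries, no strain difference in hepatocytes was called. A/J minus BALB/cJ was -1.92 ± 0.62 (edgeR, adjusted p = 0.10) and BALB/cJ minus C57BL/6J 1.01 ± 0.54 (adjusted p = 0.20). Without the library labelled C57BL/6J replicate 3, both were called, at -1.92 ± 0.35 (adjusted p = 0.015) and 1.76 ± 0.34 (adjusted p = 0.010), while A/J minus C57BL/6J was -0.91 ± 0.56 with it (adjusted p = 0.39) and -0.15 ± 0.34 without it (adjusted p = 0.80). Among all hepatocyte genes 5.08% were called for A/J minus BALB/cJ, 3.54% for A/J minus C57BL/6J and 8.97% for BALB/cJ minus C57BL/6J, with neither of the 2 members tested among them.

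LSECs repeated the BALB/cJ excess at lower levels. Cyp7b1 had 5.47, 7.47, 1.94 and 3.15 TPM in A/J LSECs, 33.5, 10.7, 10.9 and 16.9 TPM in BALB/cJ and 3.29, 2.42, 4.56 and 6.24 TPM in C57BL/6J. All BALB/cJ libraries stand above all others, and A/J and C57BL/6J overlap. Between A/J and BALB/cJ the difference was -1.99 ± 0.51 (edgeR, adjusted p = 0.026). That call was lost without A/J replicate 1 (-2.11, adjusted p = 0.053), A/J replicate 3 (-1.72, 0.063), A/J replicate 4 (-1.84, 0.063) or BALB/cJ replicate 4 (-2.02, 0.054). BALB/cJ exceeded C57BL/6J by 2.13 ± 0.51 (adjusted p = 0.013), and no single library ended that call. Without the 3 libraries rich in hepatocyte markers, both calls held, at -2.33 ± 0.39 (adjusted p = 0.0023) and 1.64 ± 0.29 (adjusted p = 0.0017). Of the members tested under the TPM limit, 1 of 3 was called between A/J and BALB/cJ, where 2.69% of all LSEC genes were, 1 of 2 for A/J minus C57BL/6J (4.13%), and 2 of 3 for BALB/cJ minus C57BL/6J (3.84%).

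Hepatocyte transcripts were present in every sorted population, so Cyp7b1 was set beside them. Per 1000 TPM of the 5 hepatocyte markers, Cyp7b1 was 0.498 and 0.986 in A/J hepatocytes, 4.24 and 4.18 in BALB/cJ and 0.88, 0.833 and 4.28 in C57BL/6J hepatocytes. In LSECs the same ratio was 0.909 to 2.89 for A/J, 4.72, 13.8, 14.1 and 12.9 for BALB/cJ and 1.41 to 5.06 in C57BL/6J. The lowest BALB/cJ ratio belongs to the library richest in hepatocyte markers and lies within the C57BL/6J range, and the other 3 stand above all libraries of both other strains. The part of hepatocyte RNA in the LSEC levels was not tested further.

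**Figure D3:**
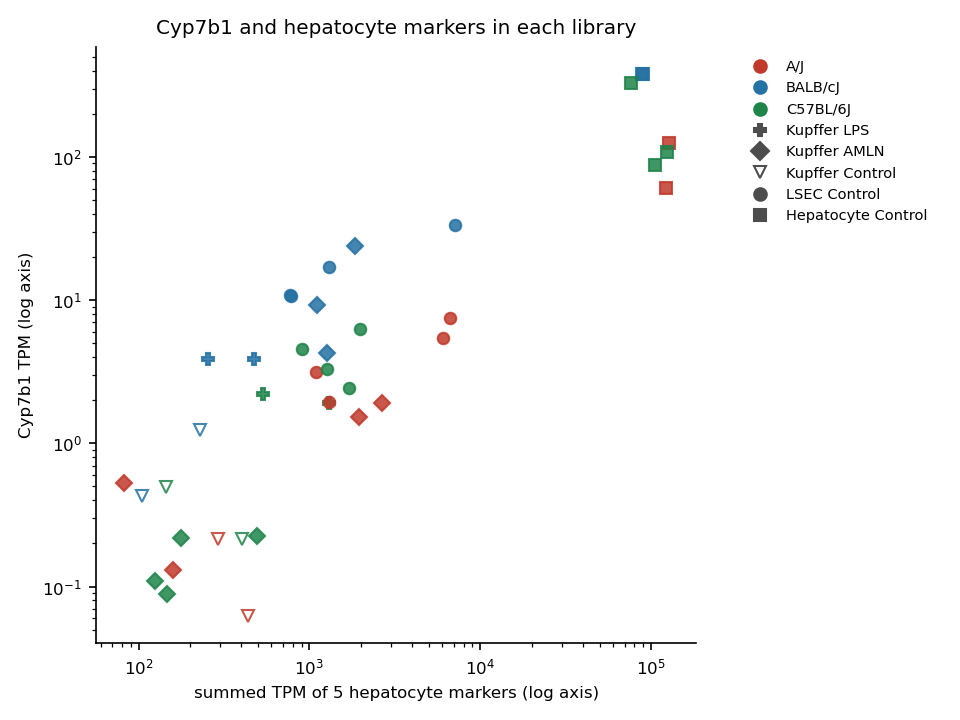
Cyp7b1 TPM against the summed TPM of 5 hepatocyte markers in single libraries of hepatocytes, LSECs and Kupffer cells (LPS, AMLN and Control), both axes logarithmic and colored by strain. BALB/cJ hepatocytes lie at 377 and 378 TPM together with 1 C57BL/6J library at 328 TPM, and the AMLN-fed BALB/cJ Kupffer cells, at 4.28 to 23.8 TPM, lie above the other Kupffer cells.

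In stellate cells Cyp7b1 had 3.11, 4.19, 1.64 and 3.82 TPM in A/J, 8.04, 5.18, 4.30 and 3.93 TPM in BALB/cJ and 3.04, 0.927 and 2.24 TPM in C57BL/6J. The BALB/cJ and C57BL/6J libraries do not overlap. With filterByExpr alone, BALB/cJ exceeded C57BL/6J by 1.38 ± 0.40 (edgeR, adjusted p = 0.019), a call lost without C57BL/6J replicate 2 (1.03, adjusted p = 0.062). By that rule 12.1% of genes were called, and the members added by it in 2 of 2 cases, the other being Gpr183. Cyp27a1, tested under the TPM limit, was not called. Kupffer cells were below stellate cells by -2.84 ± 0.39 by the same rule (adjusted p = 4.1e-06, with 40.4% of genes called). BMDMs held at most 3 Cyp7b1 counts in any of 16 libraries.

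In Kupffer cells Cyp7b1 was low and rose after LPS. After LPS it was 3.85 and 3.85 TPM in BALB/cJ, against 0.429 and 1.24 TPM in Control, and 2.22 and 1.92 TPM in C57BL/6J, against 0.497 and 0.215 TPM. In CB6F1/J it was 2.83, 1.10, 1.43, 2.02 and 2.88 TPM after LPS, against 1.18, 0.823, 1.19 and 0.805 TPM in Control, where 1 LPS library lies within the Control range. With filterByExpr alone Cyp7b1 rose by 2.77 ± 0.52 in BALB/cJ (log2, edgeR adjusted p = 0.0022), 3.15 ± 0.61 in C57BL/6J (adjusted p = 0.0021) and 1.93 ± 0.32 in CB6F1/J (adjusted p = 0.00014). By that rule 30.8%, 36.9% and 41.4% of all genes were called, and the members added by it were called in 1 of 1, 2 of 2 and 2 of 3 cases. The inbred strains' responses differed by -0.39 ± 0.79 (edgeR interaction, adjusted p = 0.88). Hepatocyte markers moved too. They summed to 254 and 475 TPM after LPS in BALB/cJ, against 104 and 229 TPM in Control, to 534 and 1310 TPM in C57BL/6J, against 144 and 406 TPM, and to 210 to 743 TPM in CB6F1/J, against 214 to 447 TPM. Per 1000 TPM of these markers Cyp7b1 was 15.2 and 8.11 after LPS in BALB/cJ, against 4.12 and 5.396 in Control. It was 4.16 and 1.46 in C57BL/6J, against 3.44 and 0.53, and 3.87 to 7.75 in CB6F1/J, against 1.84 to 4.33. LPS and Control overlap in C57BL/6J and in CB6F1/J.

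On the AMLN diet the BALB/cJ Kupffer cells stood apart. AMLN-fed BALB/cJ libraries had 4.28, 23.8 and 9.27 Cyp7b1 TPM, against 0.429 and 1.24 TPM in Control. AMLN-fed A/J libraries had 0.131, 1.90, 0.531 and 1.53 TPM, against 0.216 and 0.062 TPM, and C57BL/6J libraries 0.110, 0.225, 0.089 and 0.217 TPM, against 0.497 and 0.215 TPM. Only in BALB/cJ do all AMLN libraries stand above all Control libraries of the strain. Cyp7b1 rose there by 3.84 ± 1.00 (log2, edgeR adjusted p = 0.034). The call was lost without AMLN replicate 3 (4.01, adjusted p = 0.066), Control replicate 1 (3.25, 0.36) or Control replicate 2 (4.76, 0.13). Without AMLN replicate 2, the library at 23.8 TPM, the gene was under the TPM limit and was not called with filterByExpr alone either (2.92, adjusted p = 0.066). With that rule AMLN minus Control was not called in A/J (2.90, adjusted p = 0.12) or C57BL/6J (-0.94, adjusted p = 0.53). The test for a diet response that differs among strains, over 2 coefficients, was not called for Cyp7b1 (edgeR, adjusted p = 0.14), against 3.08% of all genes, but was with DESeq2 (adjusted p = 0.018). Among AMLN-fed libraries A/J was below BALB/cJ by -3.42 ± 0.72 (edgeR, adjusted p = 0.0095) and BALB/cJ above C57BL/6J by 5.98 ± 0.84 (adjusted p = 0.00018). Without BALB/cJ AMLN replicate 2 both could be tested with filterByExpr alone only, and were called at -2.55 (adjusted p = 0.047) and 5.09 (adjusted p = 0.00047), and leaving out any other library ended neither call. The 2 comparisons share the BALB/cJ libraries. A/J minus C57BL/6J, with filterByExpr alone, was 2.55 ± 0.76 (adjusted p = 0.026, 12.4% of genes called by that rule) and was not called without A/J replicate 2 (1.95, adjusted p = 0.085), A/J replicate 4 (2.37, 0.060) or C57BL/6J replicates 1 (2.39, 0.077), 3 (2.35, 0.076) or 4 (2.70, 0.051).

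The hepatocyte markers again moved with these values. They summed to 1275, 1847 and 1111 TPM in AMLN-fed BALB/cJ Kupffer cells, to 160, 2648, 81.8 and 1958 TPM in A/J and to 125 to 495 TPM in C57BL/6J, against 104 to 435 TPM in Control of all strains, and no marker of the 5 was at 0 in any library. The 2 A/J libraries with the most hepatocyte transcripts had 1.90 and 1.53 Cyp7b1 TPM, below all 3 BALB/cJ libraries. Per 1000 TPM of the markers Cyp7b1 was 0.719 to 6.49 in AMLN-fed A/J cells, 3.36, 12.9 and 8.34 in BALB/cJ and 0.455 to 1.22 in C57BL/6J. In BALB/cJ Control libraries it was 4.12 and 5.396, above the lowest of the AMLN-fed BALB/cJ libraries. How much of the Cyp7b1 difference is hepatocyte RNA was not tested. Under the TPM limit, AMLN minus Control called 1 of 2 members in BALB/cJ, where 4.97% of all genes were called, and not the 1 member tested in A/J (3.42%) or in C57BL/6J (11.9%). Between AMLN-fed strains, 1 of 2 was called between A/J and BALB/cJ (3.7% of all genes) and 1 of 2 for BALB/cJ minus C57BL/6J (14.7%), and Cyp27a1, the 1 tested, was not between A/J and C57BL/6J (8.8%).

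Gpr183 was the member that separated the strains most in LSECs. A/J LSECs had 45.9, 38.7, 34.9 and 42.8 TPM, BALB/cJ LSECs 22.3, 28.5, 24.5 and 29.1 TPM and C57BL/6J LSECs 2.07, 3.06, 2.61 and 2.10 TPM. The 3 strains do not overlap. A/J exceeded C57BL/6J by 4.09 ± 0.15 on the log2 scale (edgeR, adjusted p = 1.4e-10) and BALB/cJ exceeded C57BL/6J by 3.42 ± 0.14 (adjusted p = 7.4e-10). A/J exceeded BALB/cJ by 0.67 ± 0.12 (adjusted p = 0.0020), under the limit for a call. Leaving out any single library gave 4.02 to 4.22 for A/J minus C57BL/6J and 3.35 to 3.54 for BALB/cJ minus C57BL/6J. Without the 3 libraries rich in hepatocyte markers the values were 4.01 ± 0.15 and 3.49 ± 0.14, and 0.53 ± 0.14 for A/J minus BALB/cJ.

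Stellate cells showed the same order at lower levels. Gpr183 had 20.3, 14.5, 8.73 and 14.4 TPM in A/J, 8.39, 8.02, 6.19 and 4.63 TPM in BALB/cJ and 1.12, 1.59 and 1.44 TPM in C57BL/6J stellate cells. The 3 strains do not overlap. A/J exceeded C57BL/6J by 3.42 ± 0.31 (edgeR, adjusted p = 2.9e-05). A/J exceeded BALB/cJ by 1.10 ± 0.24 (adjusted p = 0.0051), under the limit without A/J replicate 1 (0.89) or BALB/cJ replicate 4 (0.95), and with filterByExpr alone BALB/cJ exceeded C57BL/6J by 2.33 ± 0.30 (adjusted p = 0.00024). Under the TPM limit 1 of 2 members was called between A/J and BALB/cJ (8.29% of all stellate cell genes) and 1 of 2 for A/J minus C57BL/6J (7.05%), and Cyp27a1, the 1 tested, was not for BALB/cJ minus C57BL/6J (9.16%).

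The 5 LSEC markers summed to 1423 to 4078 TPM in stellate cells, against 7167 to 9770 TPM in LSECs, with none at 0. Per 1000 TPM of these markers, Gpr183 was 4.02 to 5.69 in A/J stellate cells, 2.59 to 3.48 in BALB/cJ and 0.299 to 0.602 in C57BL/6J. The same ratio was 3.79 to 5.10 in A/J LSECs, 2.50 to 3.45 in BALB/cJ LSECs and 0.239 to 0.344 in C57BL/6J LSECs. Relative to endothelial transcripts the stellate cell libraries thus gave values close to those of LSECs of the same strain, and the ranges overlap in each. Whether stellate cells carry Gpr183 of their own was not tested.

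**Figure D4:**
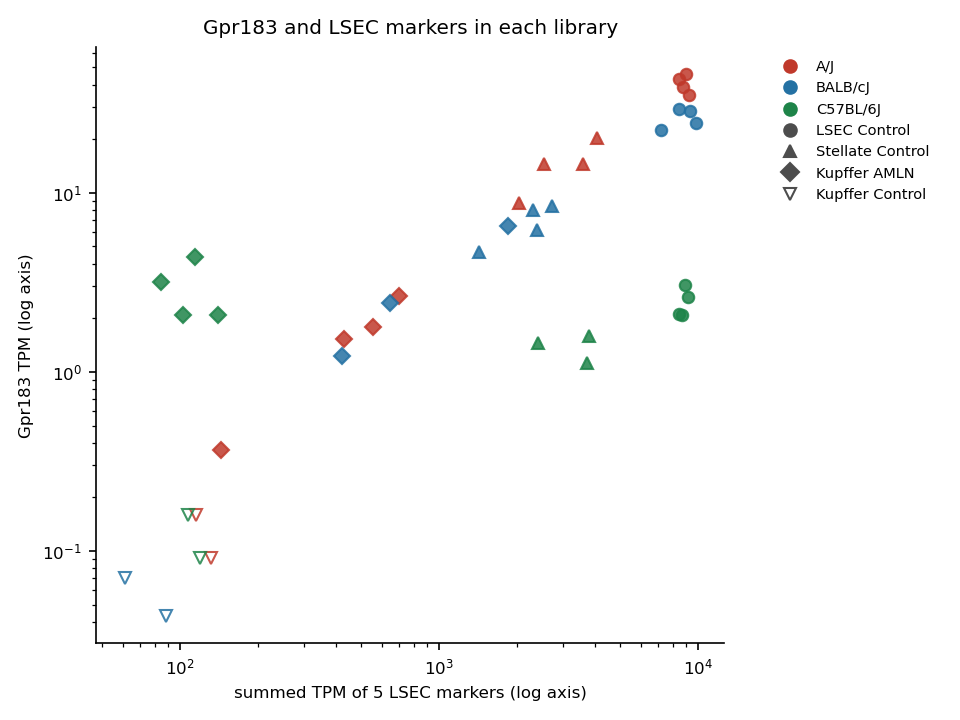
Gpr183 TPM against the summed TPM of 5 LSEC markers in single libraries of LSECs, stellate cells and Kupffer cells (AMLN and Control), both axes logarithmic and colored by strain. A/J and BALB/cJ LSECs lie at 22.3 to 45.9 TPM and C57BL/6J LSECs at 2.07 to 3.06 TPM at about the same marker level, and AMLN-fed C57BL/6J Kupffer cells have 2.06 to 4.34 TPM at the lowest marker levels of the AMLN groups.

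Untreated Kupffer cells held 1 to 4 Gpr183 counts a library (0.043 to 0.159 TPM), and hepatocytes 0.044 to 0.272 TPM. Kupffer cells were below LSECs by -7.43 ± 0.36 (edgeR, adjusted p = 2.2e-12; -7.44 without the 3 libraries rich in hepatocyte markers) and below stellate cells by -5.96 ± 0.40 (adjusted p = 8.5e-10). LPS left the gene at 0.162 to 0.302 TPM in inbred Kupffer cells, 3 to 6 counts a library, where a change is not detectable at this depth. In CB6F1/J it was 0 to 0.289 TPM after LPS, against 0.0625 to 0.2095 TPM in Control, a log2 (fold change) of 0.42 ± 0.93 (edgeR with filterByExpr alone, adjusted p = 0.70). The group mean was lower after LPS, at 0.0922 against 0.128 TPM, so the direction is not settled.

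Gpr183 was higher in Kupffer cells of AMLN-fed mice and of NSG recipients given inbred marrow. It was 0.366, 2.65, 1.52 and 1.78 TPM in AMLN-fed A/J, 2.42, 1.22 and 6.54 TPM in BALB/cJ and 3.18, 2.06, 2.07 and 4.34 TPM in C57BL/6J Kupffer cells, against at most 0.159 TPM in any inbred Control library. Every AMLN library stands above every inbred Control library. With filterByExpr alone it was higher after AMLN by 3.70 ± 0.91 in A/J (log2, edgeR adjusted p = 0.021), 5.66 ± 1.04 in BALB/cJ (adjusted p = 0.0032) and 4.73 ± 0.95 in C57BL/6J (adjusted p = 0.0035). In C57BL/6J, diet and mouse line cannot be told apart. From the summed counts the ratios were 13.5 (95% counting interval 6.10 to 37.0), 56.2 (19.1 to 274) and 26.9 (11.4 to 83.1). The call was lost without Control replicate 1 (4.23) or replicate 2 (3.30) in A/J, Control replicate 1 (6.01) or replicate 2 (5.35) in BALB/cJ and Control replicate 1 (4.35) in C57BL/6J, which rest on 1 to 4 counts each. By that rule 7.26%, 8.94% and 13.6% of all genes were called, and the members added by it 1 of 3, 1 of 2 and 1 of 3, Gpr183 each time. Among AMLN-fed mice no Gpr183 difference between strains was called (adjusted p = 0.35, 0.20 and 0.94).

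LSEC markers differed between these libraries as well. They summed to 143 to 699 TPM in AMLN-fed A/J, 423 to 1839 TPM in BALB/cJ and 84.0 to 140 TPM in C57BL/6J Kupffer cells, against 61.2 to 131 TPM in Control, none at 0. Per 1000 TPM of these markers Gpr183 was 2.56 to 3.80 in A/J and 2.89 to 3.76 in BALB/cJ, near the LSECs of these strains, and 14.8 to 38.1 in C57BL/6J, whose own LSECs had 0.239 to 0.344. This ratio was lower in every inbred Control Kupffer library than in any AMLN-fed library. Control values were 0.694 and 1.38 for A/J, 0.486 and 1.14 for BALB/cJ, and 0.761 and 1.47 for C57BL/6J. They rest on 1 to 4 Gpr183 counts a library. In AMLN-fed C57BL/6J cells Gpr183 was thus high while LSEC markers stood about as in Control. T and NK cell markers, 4 of 5 listed, summed to 13.8 to 44.1 TPM there and to 10.8 to 31.5 TPM in the other strains, against 0.265 to 8.03 TPM in Control. Monocyte markers summed to 153 to 204 TPM in AMLN-fed A/J cells, against 22.3 to 49.0 TPM in A/J Control, to 49.5 to 193 TPM in BALB/cJ, against 11.9 to 21.4 TPM, and to 93.5 to 137 TPM in C57BL/6J, against 118 to 170 TPM. The part of any of these cells in the Gpr183 level was not tested.

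In NSG recipients Gpr183 was 2.26, 2.24 and 1.08 TPM in BALB/cJ and 2.15, 3.08 and 2.21 TPM in C57BL/6J cells, against 0.070 and 0.043 TPM and 0.091 and 0.158 TPM in Control. The groups do not overlap. With filterByExpr alone it was higher in NSG recipients by 4.82 ± 0.67 in BALB/cJ (log2, edgeR adjusted p = 0.00014) and 4.23 ± 0.62 in C57BL/6J (adjusted p = 0.00012), and no single library ended either call. By that rule 10.9% and 13.9% of genes were called, and the members added by it 2 of 2, Gpr183 with Ch25h, and 1 of 2. B cell markers summed to 43.4 to 81.6 TPM in BALB/cJ and 112 to 252 TPM in C57BL/6J cells from NSG recipients, against 15.7 to 26.4 TPM in Control of these strains, and T and NK cell markers to 56.5 to 298 TPM, against 0.265 to 8.03 TPM. Dendritic cell markers summed to 36.5 to 111 TPM, against 28.5 to 52.9 TPM. Monocyte markers summed to 127 to 196 TPM in BALB/cJ, against 11.9 to 21.4 TPM, and to 189 to 230 TPM in C57BL/6J, against 118 to 170 TPM. B cells, T cells and dendritic cells are known to use this receptor, and the part of any of these cells was not tested. CB6F1/J cells in NSG recipients had 0.214, 0.387 and 0.0975 Gpr183 TPM, against 0.0625 to 0.2095 TPM in CB6F1/J Control, and these ranges overlap. Reads of these groups were counted in different ways. In the CB6F1/J NSG libraries T and NK cell markers summed to 5.63 to 14.1 TPM. B cell markers summed there to 28.0 to 49.0 TPM, against 18.9 to 24.4 TPM in CB6F1/J Control.

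Gpr183 was also present in BMDMs, with lower values in every KLA library. A/J BMDMs had 26.4 and 16.98 TPM after KLA, against 45.8 and 45.9 TPM after PBS. BALB/cJ BMDMs had 18.2 and 13.9 TPM, against 27.2 and 27.1 TPM, and C57BL/6J BMDMs 9.86 and 7.80 TPM, against 24.8 and 22.6 TPM. Every KLA library is below both PBS libraries of its strain. It fell in C57BL/6J by -1.19 ± 0.22 (log2, edgeR adjusted p = 0.00072). The values were -0.84 ± 0.20 in A/J (adjusted p = 0.0052), past the limit for a call without A/J KLA replicate 1 (-1.19), -0.49 ± 0.21 in BALB/cJ (adjusted p = 0.064) and -0.87 ± 0.10 in CB6F1/J (adjusted p = 0.00071). The 3 tests between inbred strains were not called (adjusted p = 0.62, 0.56 and 0.22). Among PBS-treated BMDMs A/J exceeded BALB/cJ by 0.66 ± 0.09 (adjusted p = 1.0e-05) and C57BL/6J by 0.87 ± 0.09 (adjusted p = 4.1e-07), both under the limit for a call. Set beside LSECs, where C57BL/6J had 2.07 to 3.06 TPM, C57BL/6J BMDMs had 22.6 and 24.8 TPM after PBS. The strain difference of LSECs and that of BMDMs were not tested against each other.

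The other genes of the pathway were read from a list of 21, of which 9 were tested after LPS. LPS called 2 of the 9 in BALB/cJ, both higher, with a list median of -0.17 on the log2 scale against -0.04 over all genes. It called 4 of 9 in C57BL/6J (3 higher, 1 lower, list median -0.40 against -0.02) and 4 of 9 in CB6F1/J (3 higher, 1 lower, list median -0.66 against -0.02). Of all genes 31.8%, 38.5% and 39.4% were called, so these counts are near or below the share of all genes. Soat2, which esterifies cholesterol, rose by 3.64, 3.74 and 4.39 in BALB/cJ, C57BL/6J and CB6F1/J, and Insig1, the oxysterol-binding anchor of SREBP, by 1.36, 1.05 and 1.503. Nr1h3, which encodes LXR alpha, fell, at -1.81 in C57BL/6J and -1.95 in CB6F1/J, and Stard3, a cholesterol transporter of late endosomes, rose by 1.19 and 1.17 in the same strains. In BMDMs KLA called none of 9 in C57BL/6J and 1 of 9 for CB6F1/J, BALB/cJ and A/J alike, Nr1h3 each time, which rose by 1.15, 1.46 and 1.17, the opposite direction to Kupffer cells of C57BL/6J and CB6F1/J after LPS. KLA called 12.2% to 16.9% of all genes.

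Among targets of LXR, 2 of 7 fell after LPS in BALB/cJ Kupffer cells and 3 of 7 in C57BL/6J and in CB6F1/J, near the shares of all genes called after LPS. Abcg1, a cholesterol exporter, fell in each, at -2.75, -2.05 and -2.87. In PBS-treated BMDMs, where Ch25h was highest in A/J, Abca1, the other LXR-driven cholesterol exporter, was the lower in A/J, at -1.17 for A/J minus BALB/cJ and -1.68 for A/J minus C57BL/6J, and 2 of 5 and 2 of 6 LXR targets were called, all lower in A/J, where 4.38% and 5.6% of all genes were called. Nr1h3 belongs to both the pathway and the LXR list. On the AMLN diet 3 of 11 pathway genes (4.97% of all genes called) rose in BALB/cJ Kupffer cells, Hsd11b1, Stard4 and Insig1, by 3.36, 2.33 and 1.17. Hsd11b1, a steroid dehydrogenase abundant in hepatocytes, differed by -8.63 on the log2 scale between untreated Kupffer cells and hepatocytes. In hepatocytes 2 of 17 pathway genes (5.08% of all genes) were called between A/J and BALB/cJ, Cyp39a1, another oxysterol hydroxylase, at -1.67 and Insig2 at -1.01.

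The genes whose group means followed each member most closely were found by Pearson's r of log2(TPM + 1) over the 25 inbred groups, among 11469 genes. Those nearest Ch25h were Nup54 (r = 0.96), Spryd7 (0.95), Pde12 (0.94), Slc7a11 (0.94) and Cd69 (0.94), each highest in KLA-treated BMDMs. Those nearest Cyp7b1 were Serpina11, Cyp2c29, Ugt2b1, C9 and Cyp2c67 (r = 0.97 to 0.98), all highest in BALB/cJ hepatocytes. Those nearest Cyp27a1 were Tsku, Fam13a, Sdc2, Ephx1 and Oplah (r = 0.90 to 0.91), and those nearest Gpr183 Xpnpep1, S100a13, Flrt2, Itga6 and Sptssa (r = 0.89 to 0.92). With a pseudocount of 0.1 TPM the 5 nearest genes kept 2 of 5 for Ch25h, 4 for Cyp27a1, 4 for Cyp7b1 and 3 for Gpr183, so the names nearest Ch25h depend on its groups near 0.

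In CB6F1/J cells both parental alleles share 1 nucleus, and reads over strain variants were counted for each. Ch25h had 1.5 such reads of 35895 and Cyp27a1 0 of 109544, so their strain differences could not be divided by allele. For Cyp7b1 in Kupffer cells, the BALB/cJ share after LPS was 60.2%, 100%, 61.6%, 64.0% and 59.4% in the 5 libraries, on 18.5 to 87.5 reads each. In Control libraries it was 73.3%, 35.7%, 30.6% and 100%, on 4 to 22.5 reads each. All 5 LPS libraries stand above 50%, and the Control libraries lie on both sides of it. Summed over libraries the share was 64.0% of 214 reads after LPS, against 51.1% of 65.5 reads in Control. Neither allele difference was called, at 0.87 ± 0.68 on the log2 scale after LPS (edgeR, adjusted p = 0.76) and 0.15 ± 0.69 in Control (adjusted p = 0.98), where 5.03% and 5.89% of all genes tested were called. The change between LPS and Control was 0.70 ± 1.15 (edgeR interaction, adjusted p = 1.0, 0.745% of all genes called). These fits did not pair the alleles of a library, so their SEs and p-values leave that link out. Per-library Wilson 95% intervals were wide, 49.0 to 69.1% for the deepest LPS library, and cover counting error only.

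**Figure D5:**
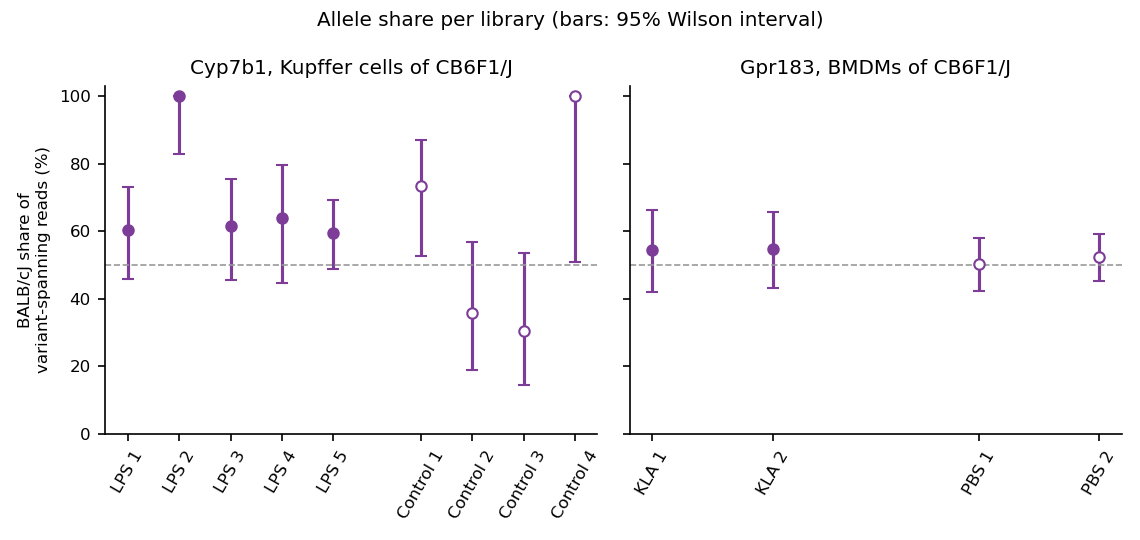
Share of variant-spanning reads that carry the BALB/cJ allele in single CB6F1/J libraries with Wilson 95% intervals, for Cyp7b1 in Kupffer cells (LPS, then Control) and Gpr183 in BMDMs (KLA, then PBS), with a dashed line at 50%. The 4 Gpr183 libraries lie between 50.2% and 54.7%, and the Cyp7b1 Control libraries spread between 30.6% and 100%.

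For Gpr183 in BMDMs the BALB/cJ share was 54.5% and 54.7% after KLA (61.5 and 69.5 reads), against 50.2% and 52.3% after PBS (154.5 and 192 reads). All 4 libraries lie near equal shares. The allele difference was 0.29 ± 0.18 after KLA (edgeR, adjusted p = 0.64) and 0.10 ± 0.19 after PBS (adjusted p = 1.0), where 4.54% and 4.49% of all genes tested were called. The alleles of a library were not paired in these fits either. LSECs of CB6F1/J mice were not analysed here.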

How the data were processed

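Poly(A) RNA of sorted liver cells and cultured macrophages was sequenced from strand-marking (dUTP) libraries. The authors aligned reads with STAR to strain genomes built from mm10, shifted them to mm10 positions with MARGE, and counted exonic reads with HOMER. The strand setting and tool versions are not given in the sources used here. Count tables were deposited without normalization, and TPM tables were deposited beside them, scaled by the authors for transcript length. BMDM and CB6F1/J libraries were deposited as estimated counts in steps of 0.5, for which no source gives a reason, and were rounded before testing. Levels of BMDMs and Kupffer cells, counted in different steps, were set side by side and not tested. CB6F1/J levels were computed here as the mean over both parental genomes, of perfectly mapped reads except in the NSG group. For CB6F1/J cells of NSG recipients all reads were used, and inbred libraries were aligned to the genome of their own strain. Levels of these sets were thus counted in different ways.

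Counts were tested with edgeR 4.0.16 (limma 3.58.1, R 4.3.3; TMM, robust quasi-likelihood) over all genes that passed filterByExpr and averaged above 8 TPM in a group, with Benjamini-Hochberg adjustment. A call needed an adjusted p under 0.05 and a log2 (fold change) beyond 1. SEs are the log2 (fold change) over the square root of F. DESeq2 1.42.0, RLE scaling, other filters, a replicate block and leaving out each library were alternatives. Allele tests needed a mean of at least 10 variant-spanning reads a library over both alleles. The main allele fits did not pair the alleles of a library, and a fit with the library as a block was an alternative. Scripts were tested on simulated data. The 4 genes, gene lists and tests were chosen with earlier results of these data known. List genes were named where called, the 3 largest of each list and comparison first, and for likeness the 5 nearest. 6 tables were not used. The list of SREBP2 targets is not reported here.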

Additional observations from a re-analysis of the deposited data

Results flagged for a closer look

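A set here is the TPM or the allele share of 1 gene over the libraries of 1 group. Of 37 sets of 4 or more libraries checked for a single library far from the rest, 3 held one, where chance gives about 1 in 20. The sets of different genes share libraries, so they are not independent checks. Ch25h was 0.088 TPM in A/J stellate cell replicate 3 and 0 in the other 3 libraries of its group, a difference of 1 count. Ch25h was 1.337 TPM in AMLN-fed C57BL/6J Kupffer cell replicate 4, against 0.224 to 0.353 TPM in the others of its group. The BALB/cJ share of Cyp7b1 reads was 100% in CB6F1/J LPS Kupffer cell replicate 2, on 18.5 reads, against 59.4 to 64.0% in the other 4.

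Effects that differed between groups by edgeR's interaction test were those of Ch25h and Cyp27a1. The KLA response of Ch25h differed by -2.40 for A/J minus BALB/cJ (adjusted p = 0.00033) and by -3.17 for A/J minus C57BL/6J (adjusted p = 2.5e-05), and both share the A/J libraries. The strain difference of Cyp27a1 in Kupffer cells minus that in BMDMs was 2.12 for A/J minus BALB/cJ (adjusted p = 1.5e-06) and 1.42 for A/J minus C57BL/6J (adjusted p = 1.5e-05).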

How the results depend on the processing

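Under the alternatives other than leaving out a library, the values of the main comparisons that changed direction or side of the threshold follow, with the cause not tested. The Cyp27a1 difference in KLA response for A/J minus BALB/cJ, -0.01, changed sign with DESeq2 (0.025), RLE scaling (0.037), filterByExpr alone (0.044), no filter (0.052) and the replicate block (0.018). DESeq2 gave -1.02 for Ch25h in Kupffer cells minus BMDMs, A/J minus BALB/cJ, which was 0.60 on 0 to 2 Kupffer cell counts, and called the Cyp7b1 diet by strain test (4.805, adjusted p = 0.018) and Cyp7b1 after AMLN in A/J (2.94, adjusted p = 0.036). Without the 3 LSEC libraries rich in hepatocyte markers, a choice made after seeing the data, as were the tests with filterByExpr alone, Cyp27a1 for A/J minus C57BL/6J was -0.26 and Cyp7b1 -0.66, both with a changed sign.

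Replicate numbers did not pair the libraries, since in no fit with 3 or more same-numbered pairs did each correlate above 0.1. The 2 pairs of CB6F1/J BMDMs correlated at 0.19 each, too few pairs to show a link. Under a replicate block, Ch25h in AMLN-fed A/J minus C57BL/6J was 0.061 and Gpr183 after LPS in CB6F1/J -0.31, both with a changed sign. Gpr183 after AMLN in A/J was 3.38 (adjusted p = 0.064) and Cyp7b1 in LSECs, A/J minus BALB/cJ, -1.92 (adjusted p = 0.051), both no longer called. Cyp27a1 in C57BL/6J cells of NSG recipients was -1.01 and Cyp7b1 in hepatocytes -1.96 for A/J minus BALB/cJ and 1.75 for BALB/cJ minus C57BL/6J, all then called.

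Leaving out 1 library at a time changed a sign or a call in the following, given as lowest to highest. In AMLN-fed Kupffer cells Ch25h was -0.063 to 2.11 for A/J minus BALB/cJ, -0.89 to 0.79 for A/J minus C57BL/6J and -2.25 to 0.11 for BALB/cJ minus C57BL/6J, Cyp7b1 1.95 to 2.91 for A/J minus C57BL/6J and Gpr183 -0.90 to 0.35 for BALB/cJ minus C57BL/6J. After AMLN, Cyp7b1 was 3.25 to 4.76 in BALB/cJ and Gpr183 4.35 to 5.15 in C57BL/6J, 4.82 to 6.06 in BALB/cJ and 3.24 to 4.23 in A/J. After KLA, Ch25h was 5.15 to 6.43 in CB6F1/J, Cyp27a1 -1.72 to -0.90 in BALB/cJ and Gpr183 -1.19 to -0.55 in A/J. Differences in KLA response were -0.38 to 0.44, -0.092 to 0.61 and -0.24 to 0.62 for Cyp27a1 (A/J minus BALB/cJ, A/J minus C57BL/6J, BALB/cJ minus C57BL/6J), -0.00093 to 0.64 for Gpr183 (A/J minus C57BL/6J) and -1.08 to -0.54 for Ch25h (BALB/cJ minus C57BL/6J). Kupffer cells minus BMDMs gave -3.59 to 1.61 and -7.19 to 0.58 for Ch25h and -0.18 to 0.79 for Gpr183. LPS gave -0.67 to 0.76 for Gpr183 in CB6F1/J and a strain difference of -1.10 to 0.50 for Cyp7b1. In NSG recipients Ch25h was 6.66 to 6.91 in BALB/cJ and Cyp27a1 -1.01 to -0.87 in C57BL/6J. Strain differences were -0.59 to 0.086 for Cyp27a1 and -2.36 to -1.50 for Cyp7b1 in LSECs (A/J minus BALB/cJ), -2.58 to -1.47 and 0.70 to 1.76 for Cyp7b1 in hepatocytes, 1.03 to 1.74 for Cyp7b1 and 0.89 to 1.28 for Gpr183 in stellate cells, -1.09 to -0.88 for Cyp27a1 in PBS BMDMs (A/J minus C57BL/6J) and -0.47 to 0.61 for Cyp7b1 alleles in untreated Kupffer cells.

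Counts of all genes called moved by over 1.5 times with DESeq2 in 5 of 48 comparisons, among them 200 against 9 genes for the LPS response between strains, with the block in 2 of 43, with filterByExpr alone in 39 of 43 and with no filter in 42 of 43, both of which test more genes. Leaving out 1 library did so in 33 of 496 fits, among them all 8 of the LPS response between strains (0 to 396 genes) and 3 each of AMLN minus Control in A/J (14 to 450 against 271) and BALB/cJ (8 to 209 against 409). Counts of 0 to 6 a library limit Ch25h in untreated inbred Kupffer cells and Gpr183 in untreated and LPS-treated ones.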
